A study of Mus musculus with 2 samples.

Results

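The genes described here are 10 members of the common gamma chain and IL-4 receptor family, taken by gene name from a deposited table of 55246 loci. They are 8 receptor chain genes (Il2ra, Il2rb, Il2rg, Il7r, Il4ra, Il9r, Il15ra and Il21r) and 2 ligand genes (Il15 and Il7). All 10 were found once each, and all 10 had at least 10 reads over both libraries, the minimum for giving a ratio, as did 17363 loci of the whole table. The RNA came from Treg cells (suppressive CD4 T cells whose identity rests on the factor Foxp3) of the colon lamina propria, the tissue layer beneath the gut epithelium, in female mice. There were 2 libraries, 1 from wild-type (WT) mice and 1 from mice labelled Exon2KO, which the study's title calls Foxp3∆2, a Foxp3 gene without exon 2. The comparison asks how the transcripts of colonic Treg cells differ when Foxp3 lacks this exon. The labels give no strain, age, sorting scheme or number of mice per library, and nothing else that both groups carried.

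With 1 library of each genotype, no difference below has a replicate check. Each interval is a 95% interval for counting error in these 2 libraries only and holds no spread between samples of a genotype. Reads were counted with no molecular identifiers, and where they repeat a molecule the interval is too narrow. A ratio compares the libraries and not the genotypes. In RNA from a mixed sort, fewer cells of a type and less RNA per cell cannot be told apart.

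The common gamma chain, encoded by Il2rg, is a signalling subunit shared by the receptors for IL-2, IL-4, IL-7, IL-9, IL-15 and IL-21. Each receptor adds its own chain or chains, and the receptors signal through the kinases JAK1 and JAK3 to STAT factors, chiefly STAT5 for IL-2, IL-7 and IL-15, STAT6 for IL-4 and STAT3 for IL-21. Treg cells depend on IL-2 taken up by a receptor of Il2ra (CD25), Il2rb (CD122) and Il2rg, and make little IL-2 themselves. Il4ra also pairs with Il13ra1 to bind IL-13, and Il7r also pairs with Crlf2 to bind TSLP.

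The total was 16281133 reads for WT and 15412425 for Exon2KO. Foxp3 itself had 6991 and 20946 reads, or 111 and 330 FPKM (the authors' deposited level, corrected for gene length and depth), a log2 ratio of 1.56 (1.52 to 1.60). A count over the whole gene does not check the loss of 1 exon. Of 10 T cell markers, 7 were lower and 2 higher in Exon2KO by their counting intervals, at a summed level of 6764 and 5276 in CPM (reads in each 1000000 of the scaled library size). Cd5 was past 2-fold lower (-1.05), though not with total counts, the T cell marker sum or the CD3 complex genes as the scaling, whereas Cd3e was at 0.00 and Cd4 at 0.20. Of 9 Treg cell markers, which include Foxp3 and Il2ra, 5 were past 2-fold lower in Exon2KO (Ikzf2 at -4.29, Lrrc32 at -2.27, Ikzf4, Tnfrsf18 and Tnfrsf4) and only Foxp3 past 2-fold higher, with a median log2 ratio of -1.37. Ctla4, a co-inhibitory receptor of Treg cells, was at 0.71. RNA of other cells was present in both libraries: Jchain, a plasma cell gene, was at 3025 and 2840 FPKM. Of 8 epithelial markers, 6 were past 2-fold higher in Exon2KO, and their summed level was 89.9 CPM in WT and 339 in Exon2KO.

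RefSeq promoter windows (GRCm38.p6, from 250 bases before to 50 after a gene's start) were on hand for 7 of the 10 genes, in 8 windows, since Il15ra has 2 starts. They were searched on both strands for 3 motifs: TTCNNNGAA, the core bound by STAT5, TGTTTAC, bound by forkhead factors, and AGATAA, bound by GATA factors. The motifs were chosen with the sequences in view. A match was found in 3 of the 8 windows, 1 for each motif, and these windows are shown because they belong to the gene with the lowest ratio, the gene with the highest level and 1 of the 2 chains that were higher in Exon2KO. Capitals mark the matches, and each sequence runs 5′ to 3′ on the strand of its gene.
Il9r, chr11:32200230-32200529, minus strand: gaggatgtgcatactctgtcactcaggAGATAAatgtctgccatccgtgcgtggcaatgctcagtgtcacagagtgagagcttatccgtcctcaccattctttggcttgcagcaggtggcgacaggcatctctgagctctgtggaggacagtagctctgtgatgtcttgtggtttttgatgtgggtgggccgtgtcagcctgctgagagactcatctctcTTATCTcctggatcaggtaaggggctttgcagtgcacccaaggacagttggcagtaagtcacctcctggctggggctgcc
Il21r, chr7:125603179-125603478, plus strand: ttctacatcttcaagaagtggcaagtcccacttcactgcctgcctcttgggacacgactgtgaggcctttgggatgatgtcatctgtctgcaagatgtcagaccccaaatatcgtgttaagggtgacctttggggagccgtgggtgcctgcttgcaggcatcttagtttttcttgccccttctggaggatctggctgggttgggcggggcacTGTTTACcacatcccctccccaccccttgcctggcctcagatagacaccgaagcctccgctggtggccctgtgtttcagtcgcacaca
Il7r, chr15:9529827-9530126, minus strand: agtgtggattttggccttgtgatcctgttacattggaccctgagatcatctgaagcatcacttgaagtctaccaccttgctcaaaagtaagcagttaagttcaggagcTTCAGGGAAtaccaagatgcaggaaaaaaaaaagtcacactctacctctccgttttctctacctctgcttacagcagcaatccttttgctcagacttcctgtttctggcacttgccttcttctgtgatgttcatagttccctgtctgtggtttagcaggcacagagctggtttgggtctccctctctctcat
The Il9r window holds 2 matches to AGATAA, beginning 223 bases before the start on the gene's strand and 30 bases before it on the opposite strand. The Il21r window holds TGTTTAC at 38 bases before the start, and the Il7r window holds TTCNNNGAA at 142 bases before it. The start meant is that of RefSeq, which for Il9r and Il21r is also the deposited start. For Il7r it lies 300 bases inside the deposited gene, so that the whole Il7r window is within it. Over all 32851 RefSeq windows of this length, AGATAA was in 11.2% (at least 2 matches in 1.14%), TTCNNNGAA in 8.30% and TGTTTAC in 3.65%. The matches are letters in a window and do not show that a factor binds there. No match of the 3 motifs was found in the windows of Il2ra, Il15ra, Il4ra and Il2rg.

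Levels of the 10 genes ran from 477 to 0.425 FPKM in WT. The members with at least 1000 reads over both libraries were 6 receptor chains, and the remaining 4 genes each had fewer than 500 reads. On the per-length FPKM scale the order in WT was Il21r (477 FPKM), Il2rg (383), Il2rb (141), Il4ra (107), Il7r (45.2), Il2ra (33.0), Il15ra (3.41), Il9r (1.69), Il15 (0.561) and Il7 (0.425). In Exon2KO the first 7 places were the same, at 338, 261, 192, 97.1, 59.9, 26.1 and 2.39 FPKM. The last 3 places changed to Il15 (0.612), Il7 (0.233) and Il9r (0.216). Counting intervals of neighbours overlapped only for Il15 and Il7 in WT, and only for Il7 and Il9r in Exon2KO. The chain of the IL-21 receptor thus stood above 99.2% of protein-coding genes with enough reads in WT and above 99.0% in Exon2KO, whereas Il2ra, which encodes CD25, stood below Il7r in both libraries. The order was the same in both libraries when the length of the longest coding transcript in GENCODE M21 replaced the deposited length, which is the union of all exons.

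**Figure D1:**
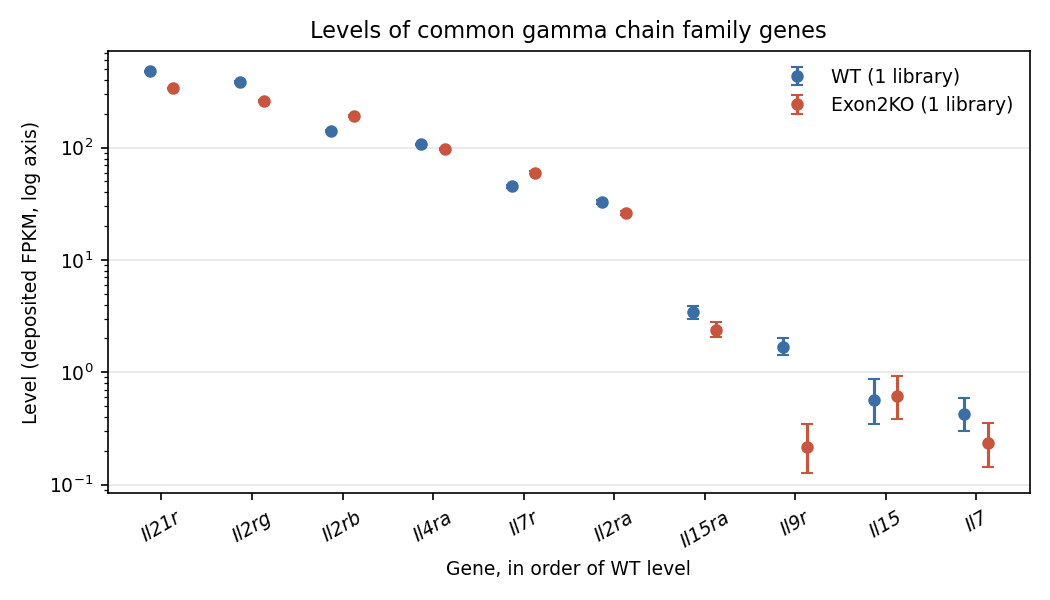
Level of each of the 10 genes in the WT and the Exon2KO library, in deposited FPKM on a log axis, with 95% Poisson intervals that cover counting error only. The 6 genes from Il21r to Il2ra lie above 20 FPKM in both libraries and the other 4 below 4 FPKM, and Il9r shows the widest gap between the libraries.

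Between the libraries, Il9r was the only member past 2-fold, 7.18-fold lower in Exon2KO, and no member was past 2-fold higher. Over all 17363 genes with enough reads, 8.14% were past 2-fold lower and 9.38% past 2-fold higher, 17.5% in all, so that 1 of 10 members is not above the background. The 6 members with at least 1000 reads differed by 1.48-fold at most, and 4.73% of all genes of that depth were past 2-fold. The counting interval left out equality for 9 of the 10 members, against 47.3% of all genes (24.6% lower and 22.8% higher) and 67.9% of genes with at least 1000 reads. These 9 were 7 genes that were lower in Exon2KO and 2, Il2rb and Il7r, that were higher. The median log2 ratio of the members was -0.43, and that of all genes was 0.0035. Together the 10 genes made up 0.404% of all reads in WT and 0.371% in Exon2KO.

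**Figure D2:**
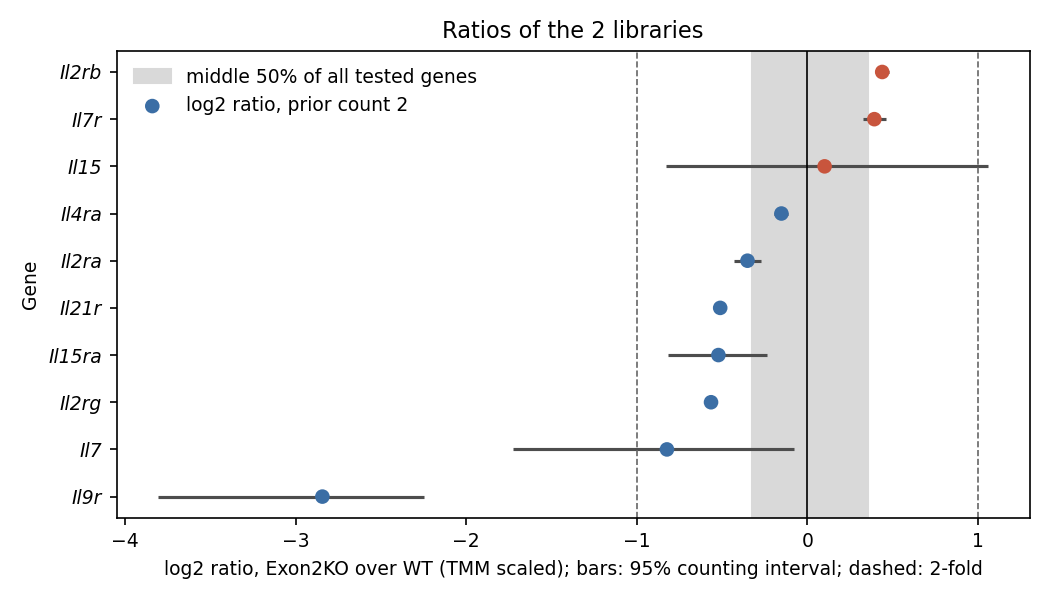
Log2 ratio of Exon2KO over WT for each of the 10 genes after TMM scaling, with 95% counting intervals as bars, 2-fold as dashed lines and the middle 50% of all tested genes (-0.33 to 0.35) in grey. Il9r alone lies past 2-fold, and Il2rb and Il7r lie right of the grey band while Il2ra, Il21r, Il15ra, Il2rg, Il7 and Il9r lie left of it.

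The common gamma chain gene Il2rg (ENSMUSG00000031304, chromosome X, 101264378 to 101268255 on the minus strand, GRCm38) had 14406 reads in WT and 9921 in Exon2KO, or 918 and 621 CPM. It was lower in the Exon2KO library by 1.48-fold, a log2 ratio of -0.56 (-0.60 to -0.53). Of the 6 deep members it had the lowest ratio. Gm20489, a coding gene that overlaps it on the same strand, took 1 and 3 reads, and reads in shared sequence are uncertain.

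The 3 chains of the IL-2 receptor did not differ in 1 direction. Il2rb (ENSMUSG00000068227, chromosome 15, 78479256 to 78495271, minus strand), which carries IL-2 and IL-15 signals, had 9501 reads in WT and 13120 in Exon2KO, or 605 and 821 CPM. It was 1.36-fold higher in Exon2KO, or 0.44 on the log2 scale (0.40 to 0.48). Il2ra (ENSMUSG00000026770, chromosome 2, 11642807 to 11693193, plus strand), the chain that gives the receptor its high affinity, had 2968 and 2370 reads, or 189 and 148 CPM. Its log2 ratio was -0.35 (-0.43 to -0.27). Gm37881, which overlaps Il2ra on the same strand, had 80 and 50 reads, and reads in shared sequence are uncertain.

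Ratios of 2 genes within a library do not depend on how the libraries are scaled. Per kilobase, Il2rb had 0.367 of the reads of Il2rg in WT and 0.736 in Exon2KO, a 2.01-fold shift (log2 1.00, 0.95 to 1.06). Il2ra had 0.234 of the reads of Il2rb in WT and 0.136 in Exon2KO, a log2 shift of -0.79 (-0.88 to -0.70). Relative to Il2rg, Il2ra differed little, at 0.0861 in WT and 0.0998 in Exon2KO (log2 0.21, 0.13 to 0.30). Among the IL-2 receptor genes, the transcript balance in the Exon2KO library therefore lay further towards Il2rb.

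Il2rb and the IL-15 receptor are also known from natural killer and CD8 T cells. Of the 6 markers of those cells with enough reads, 3 were past 2-fold lower in Exon2KO and 1, Ncr1, was higher, with 0 reads in WT and 10 in Exon2KO. Their summed level over all 7 listed markers was 345 CPM in WT and 19.8 CPM in Exon2KO, most of it from the granzyme gene Gzma (5153 and 164 reads). Cd8a had 23 and 6 reads and Klrb1c 15 and 18. The part of these cells in the Il2rb values was not tested.

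Il7r (ENSMUSG00000003882, chromosome 15, 9505788 to 9530176, minus strand) encodes CD127, which is usually low on Treg cells and high on other resting T cells. It had 3321 reads in WT against 4442 in Exon2KO, or 212 and 278 CPM, and was 1.31-fold higher in Exon2KO, or 0.39 on the log2 scale (0.33 to 0.46). The Il7r level per kilobase was 1.37 times that of Il2ra in WT and 2.30 times in Exon2KO, a log2 shift of 0.74 (0.64 to 0.85). Relative to Il2rb it was 0.321 in WT and 0.311 in Exon2KO, with an interval of the log2 shift that includes 0 (-0.12 to 0.03). The 2 chains that were higher in Exon2KO thus kept nearly the same balance to each other within counting error.

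Il4ra and Il21r lie next to each other on chromosome 7, with 24.0 kb between them, both on the plus strand. Il21r (ENSMUSG00000030745, 125603429 to 125633570), the chain specific to IL-21, had 25013 reads in WT and 17880 in Exon2KO, or 1594 and 1118 CPM. Its log2 ratio was -0.51 (-0.54 to -0.48), which is 1.43-fold lower in Exon2KO. Il4ra (ENSMUSG00000030748, 125552120 to 125579474), the chain shared by IL-4 and IL-13, had 10111 and 9269 reads, or 644 and 580 CPM. Its log2 ratio was -0.15 (-0.19 to -0.11), the smallest difference among the receptor chains. Il4ra per kilobase was 0.224 of Il21r in WT and 0.287 in Exon2KO, so the neighbours differed from each other by 0.36 on the log2 scale (0.31 to 0.41). Il21r stayed close to Il2rg, at 1.25 times its level per kilobase in WT and 1.29 times in Exon2KO (log2 0.05, 0.01 to 0.10).

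**Figure D3:**
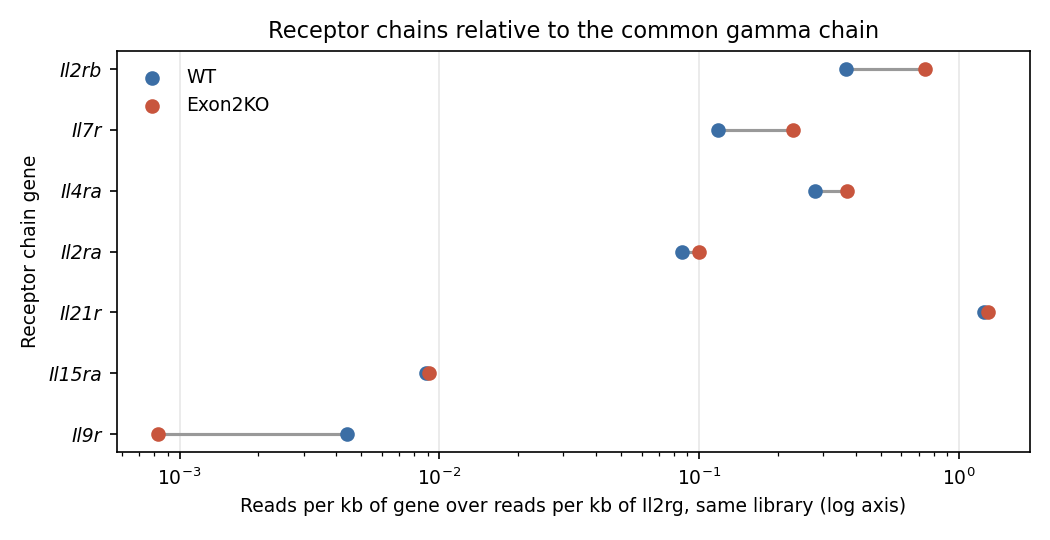
Reads per kilobase of each receptor chain gene divided by those of Il2rg in the same library, on a log axis, for WT and Exon2KO. Il2rb and Il7r moved right by 2.01 and 1.94 times, Il21r and Il15ra nearly coincide between the libraries, and Il9r moved left by 5.35 times.

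Il15ra (ENSMUSG00000023206, chromosome 2, 11705290 to 11734317, plus strand) encodes the chain that binds IL-15 and can present it to neighbouring cells. It begins 12.1 kb after the end of Il2ra. It had 239 reads in WT against 169 in Exon2KO, for a log2 ratio of -0.52 (-0.82 to -0.24). With the T cell marker sum as the scaling the ratio was -0.17, and its interval then included equality. Relative to Il2ra the balance of Il15ra was 0.103 and 0.0916 per kilobase, with an interval of the log2 shift that includes 0 (-0.47 to 0.12). These reads were too few to show a difference between the neighbours.

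Il9r (ENSMUSG00000020279, chromosome 11, 32187541 to 32200279, minus strand), the chain specific to IL-9, had 132 reads in WT and 17 in Exon2KO, or 8.41 and 1.06 CPM. The log2 ratio was -2.84, and the interval computed without the prior count of 2 was -3.81 to -2.25. Of all genes with enough reads, 1.01% had a ratio as low or lower, and of the 1665 genes with 100 to 200 reads over both libraries, 1.2% did and 8.41% were past 2-fold lower. Relative to Il2rg, Il9r was 5.35-fold lower in Exon2KO (log2 -2.42, -3.15 to -1.69), and relative to Il2ra 6.20-fold lower (log2 -2.63, -3.37 to -1.90). In WT it stood above 38.3% of protein-coding genes with enough reads, and in Exon2KO above 11.2%.

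Il9r is also known from mast cells and B cells. Of 6 mast cell and basophil markers, Fcer1a, Mcpt1, Mcpt2 and Mcpt8 had 0 reads in both libraries and Cpa3 had 1 read in WT and 0 in Exon2KO. Kit, the sixth, had 149 and 53 reads, and the summed level of the list was 9.56 CPM in WT and 3.31 CPM in Exon2KO. Among B and plasma cell markers, Ms4a1 was past 2-fold lower in Exon2KO, with 47 reads in WT and 10 in Exon2KO. Cd79a had 1244 and 990 reads (-0.36, -0.48 to -0.23), and Sdc1 was past 2-fold higher, with 510 and 1213. The 7 markers of that list with enough reads had a median log2 ratio of -0.36. The part of B cells in the Il9r values was not tested.

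In the authors' deposited table Il9r had a log2 fold change of -2.97 and an adjusted p-value of 7.50e-06, and the adjusted p-values of the other 9 members lay between 0.656 and 1. That table gives p-values from 1 library per genotype. For 100% of the 22447 genes that have one, all with at least 2 reads over both libraries, they lie within 1% of those of edgeR's exact test with an assumed relative spread between samples (biological coefficient of variation, BCV) of 0.2, so they rest on an assumption and not on a measured spread. With an assumed BCV of 0.4, Il9r did not pass an adjusted p-value threshold of 0.05.

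The ligand genes were near the lower end of detection. Il15 (ENSMUSG00000031712, chromosome 8, 82331632 to 82403222, minus strand), made by many myeloid, stromal and epithelial cells, had 20 reads in WT and 22 in Exon2KO. So few reads could not show a difference (log2 ratio 0.10, -0.83 to 1.06). Il7 (ENSMUSG00000040329, chromosome 3, 7569994 to 7613760, minus strand), made mainly by stromal and epithelial cells, had 38 and 21 reads, a log2 ratio of -0.82 with an interval of -1.73 to -0.08. That interval includes equality with total counts, the CD3 complex genes or the T cell marker sum as the scaling. Gm16685, which overlaps Il7 on the opposite strand, had 2 and 6 reads, and the use of strand in counting is not given in the sources used here. Of 7 stromal and endothelial markers with enough reads, 3 were past 2-fold higher in Exon2KO and 0 lower. These 3, Vwf, Lum and Cdh5, had 36, 26 and 15 reads over both libraries. By counting interval 3 of the 7 were higher and 2 lower. All 8 listed markers summed to 63.9 CPM in WT and 59.7 CPM in Exon2KO. Of 6 myeloid markers with enough reads, 1 was past 2-fold lower in Exon2KO, Csf1r, with 14 and 6 reads (-1.02, -2.92 to 0.22). Only 1 had an interval off equality, Lyz2, which was higher in Exon2KO, with 317 and 405 reads. All 8 listed myeloid markers summed to 42.1 CPM in WT and 46.9 CPM in Exon2KO. The part of myeloid, stromal and epithelial cells in the Il15 and Il7 values was not tested.

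The other ligands of these receptors had few reads. Il4 had 36 reads in WT and 53 in Exon2KO, with a log2 ratio of 0.51 (-0.11 to 1.18). Il21 had 2 and 13 reads (1.89, 0.53 to 5.86), and Il13 had 1 and 9 reads (1.86, 0.29 to 8.60). Both ligands were past 2-fold higher in the Exon2KO library on very few reads. Il2 had 1 and 6 reads, Il9 had 3 and 0, and Tslp had 7 and 0, which is too few for a ratio. With 0 reads, Il9 and Tslp could still make up as much as 1.95e-05% of the Exon2KO library (3 reads).

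The other receptor chains of the family were Crlf2, Il13ra1 and Il13ra2. Crlf2, the partner of Il7r for TSLP, had 798 and 687 reads, a log2 ratio of -0.24 (-0.39 to -0.09). Il13ra1, the partner of Il4ra for IL-13, had 36 and 16 reads and was past 2-fold lower in Exon2KO (-1.10, -2.15 to -0.31). Il13ra2, a decoy receptor, had 0 reads in both libraries.

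Downstream of the receptors, the genes of 9 kinases and STAT factors all had log2 ratios below 0, with a median of -0.44, and none was past 2-fold. The interval left out equality for 8 of the 9, against 67.9% of all genes with at least 1000 reads, a depth that all 9 reached. All 9 lay below 0 with TMM scaling, 8 of 9 with total counts or the CD3 complex genes, and 6 of 9 with the sum of 10 T cell markers. The median of all genes was 0.0035 with TMM and 0.358 with that sum. The lowest of the 9 with TMM was Stat5a, which had 3883 reads in WT and 2308 in Exon2KO (-0.78, -0.85 to -0.70). Its close relative Stat5b had 5175 and 4235 reads (-0.32, -0.37 to -0.26). Jak3, the kinase that binds the common gamma chain, had 1584 and 1189 reads (-0.44, -0.55 to -0.33). Stat3 had the most reads, 20036 and 13066 (-0.64, -0.68 to -0.61), and Stat6, which IL-4 activates, had 1741 and 1344 (-0.40, -0.50 to -0.30).

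Among 12 feedback and target genes of STAT5 and STAT6, 2 were past 2-fold lower in Exon2KO and 1 was past 2-fold higher. Myc, a growth regulator, had 1631 reads in WT and 460 in Exon2KO (-1.85, -2.01 to -1.70). Bcl2l1, which encodes the survival protein BCL-XL, had 1664 and 530 reads (-1.67, -1.82 to -1.54). Socs2, a STAT5-induced feedback inhibitor, was higher, at 1857 and 3900 reads (1.04, 0.96 to 1.12). Cish, another STAT5-induced inhibitor, did not follow it, at 4784 and 4176 reads (-0.22, -0.28 to -0.16), and Bcl2 was at 558 and 345 reads (-0.72, -0.92 to -0.52). The list had a median of -0.50. Of the 6 adaptor and phosphatase genes with enough reads, 0 were past 2-fold, and Irs1 had 0 reads.

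Over the 37 pathway genes outside the family, 32 had enough reads, and 3 were past 2-fold higher and 3 lower. That is 18.75% of them, beside 17.5% of all genes with enough reads, a share that falls with depth. Myc, Bcl2l1 and Socs2 each had over 1000 reads, and 4.73% of all genes of that depth were past 2-fold. Il21, Il13 and Il13ra1 had only 15, 10 and 52 reads over both libraries. With the sum of T cell markers as the scaling, 2 of the 32 pathway genes were past 2-fold lower, since Il13ra1 no longer was. Ratios below 0 were found for 27 of the 32 with TMM scaling, for 25 with total counts, and for 17 with the sum of T cell markers. The median log2 ratio of all genes moved as well, at 0.0035, 0.108 and 0.358 in the same order. That of the 32 pathway genes was -0.39, -0.30 and -0.062.

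**Figure D4:**
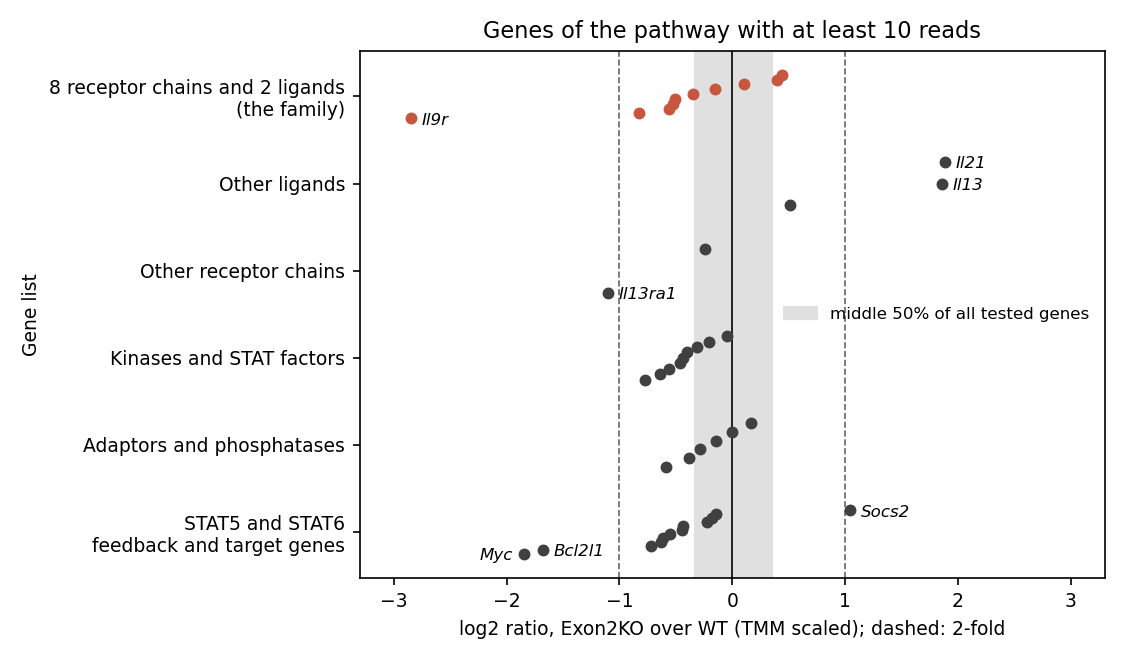
Log2 ratio of Exon2KO over WT for the 10 family genes and for each other pathway gene with at least 10 reads, by list, with 2-fold as dashed lines and the middle 50% of all tested genes in grey. Genes past 2-fold are named, and the 9 kinases and STAT factors all lie left of 0 with this scaling.

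The direction of the smaller differences depends on what the libraries are scaled to. Scaling to the sum of 10 T cell markers, of which Cd2 (32787 and 19603 reads) made up 30.9% in WT and 23.2% in Exon2KO, raised the log2 ratio of a deep gene by 0.36 over TMM. Il2ra then stood at 0.01 and Il4ra at 0.21, both above 0, and Il2rg and Il21r at -0.21 and -0.15. Scaling to Cd3d, Cd3e, Cd3g and Cd247 alone, chosen after the data were seen, raised ratios by 0.09 and changed the direction of no member. Il2rb and Il7r were above 0, and Il2rg, Il21r, Il15ra, Il7 and Il9r below 0, under all 7 scalings.

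**Figure D5:**
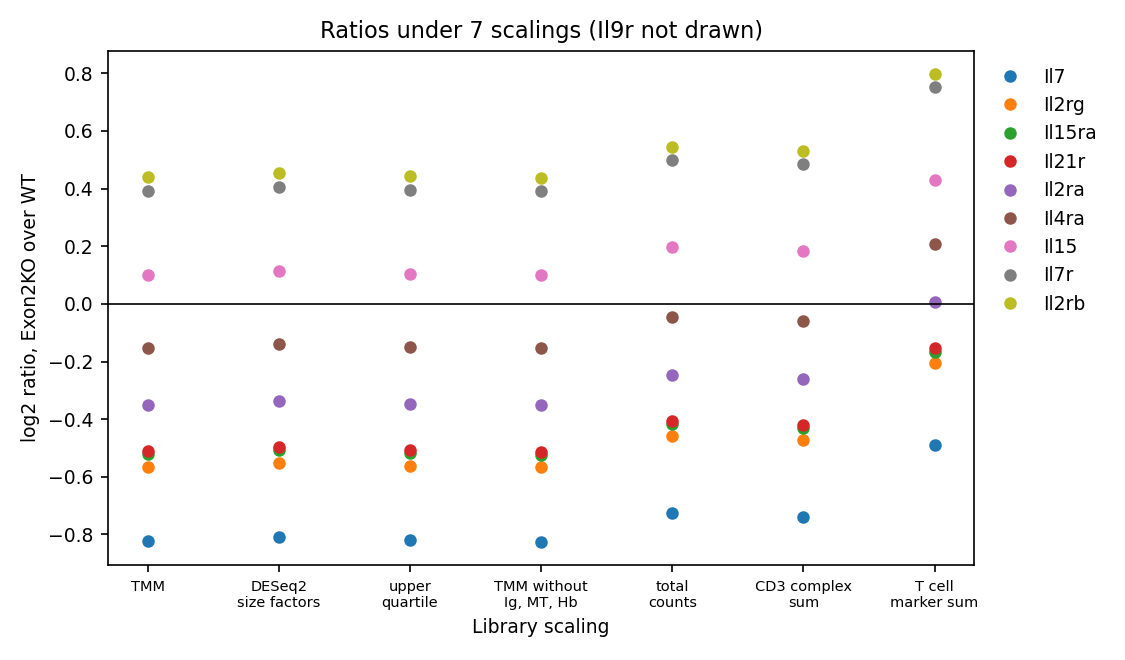
Log2 ratio of Exon2KO over WT for 9 of the 10 genes under 7 ways of scaling the libraries. Il9r, between -2.84 and -2.51, is off the axis, and only Il2ra and Il4ra change sign, with the sum of T cell markers.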

How the data were processed

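Per the submitters' processing notes, HISAT2 2.0.5, StringTie 1.3.3b, featureCounts 1.5.0-p3, DESeq2 1.16.1 and the build mm10 were used, with no role or order given. The table the authors deposited holds raw counts, FPKM values, a scaled count signal that was not used here, and log2 fold changes with p-values. All 10 genes have the same position in GENCODE M21 (GRCm38), and their deposited length equals the union of their exons there.

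Counts were scaled with TMM in edgeR 4.0.16 (R 4.3.3) (factors 0.964 in WT, 1.04 in Exon2KO). The quasi-likelihood test of edgeR needs replicates, so no test with a measured spread was made, and edgeR's exact test was run only as an alternative with an assumed one. Log2 ratios divide Exon2KO by WT after a prior count of 2, and a gene was counted as past 2-fold from that ratio, at 10 reads or more over both libraries. Their 95% intervals come from exact Clopper-Pearson limits on each gene's share of reads in Exon2KO, with no prior count. For a ratio of 2 genes within a library the interval of the shift is a normal approximation on the log scale, and for FPKM it is an exact Poisson interval. Alternatives were other scalings (DESeq2 1.42.0 size factors among them), read minimums, fold thresholds, prior counts and assumed spreads. The procedure was run on simulated counts that held counting error only, so that run says nothing on the spread between samples. Python 3.11.15, numpy 2.4.6, pandas 2.3.3 and scipy 1.17.1 were used.

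The 10 genes, the pathway and marker lists and the alternatives were chosen with earlier results of these data known. Every family member was named. Of the pathway lists, every ligand and every gene past 2-fold were named. Of the marker lists, Foxp3 was always to be named, and not every gene past 2-fold was. The remaining names in both kinds of list were picked with their values in view. With 2 libraries no measure of likeness between expression patterns exists. A marker of the B and plasma cell list is not reported here.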

Additional observations from a re-analysis of the deposited data

How the results depend on the processing

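Il9r was past 2-fold lower under every scaling, prior count, read minimum and fold threshold run, 4-fold included, and with an assumed BCV of 0.2, but with an assumed BCV of 0.4 the count of members past 2-fold lower was 0. At 1.5-fold it was 2, Il9r and Il7. The count of members past 2-fold higher was 0 under every alternative run. The median log2 ratio of the members, -0.43, was -0.33 with total counts, -0.34 with the CD3 complex genes and -0.073 with the sum of T cell markers. It was -0.51 with at least 50 reads, which leaves out Il15. Il9r, past 2-fold, kept its sign under all of these. The sum of T cell markers left 6 intervals off equality in place of 9, and the split went from 2 higher and 7 lower to 3 higher and 3 lower. Il4ra went from lower (-0.15) to higher (0.21). Il2ra went from -0.35 to 0.0071, and its interval then included equality, as did those of Il15ra and Il7. Total counts or the CD3 complex genes left 8, without Il7.

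Over all genes, 1628 were past 2-fold higher and 1413 lower. The sum of T cell markers gave 2576 and 947, so that 73.1% of them were higher against 53.5% with TMM, and moved the median log2 ratio of all genes by 0.355. Total counts gave 1871 and 1237 (60.2% higher) and moved it by 0.105. No minimum above 1 read gave 2643 and 2844, at least 50 reads 649 and 685, and protein-coding genes only 962 and 934, as the number of genes tested implies. A threshold of 1.5-fold gave 2922 and 2647, and 4-fold 499 and 408. An assumed BCV of 0.2 left 579 and 536, and of 0.4 left 86 and 78. The scaling to the CD3 complex genes was chosen after the data were seen. Few reads limit the precision for Il15 and Il7, with 42 and 59 over both libraries. No paired analysis was possible because each genotype has 1 library, which also prevents leaving out a library.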
